A study of Sus scrofa with 13 samples.

Results

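The genes described here were titin and a set of proteins of the M-band, the A-band and the Z-disc of the muscle sarcomere, measured by RNA-seq in the longissimus lumborum (loin) muscle of pigs. They were chosen by symbol from a list of 9 genes, TTN, MYOM1, MYOM2, MYBPC1, MYBPC2, LDB3, MYOZ1, MYOZ3 and TCAP. Of the 9 symbols, 6 matched an Ensembl gene present in both count tables, out of 25322 genes in all. No gene matched TTN (titin), LDB3 (ZASP) or MYOZ3 (a further myozenin) by symbol, and these 3 were not analysed here. The values below therefore cover M-band, A-band and Z-disc proteins without titin itself.

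The study compared muscle of pigs with a high and a low weight of the loin within each of 2 breeds, Hampshire and Pietrain. There were 13 pigs, with 3 high and 3 low loin weight Hampshire pigs and 4 high and 3 low loin weight Pietrain pigs. Group sizes follow the sample labels, which list more Pietrain high pigs than the description of the animals in the methods. All were females of 6 months, and muscle was taken just after slaughter. Breed is the line of the animal, so any difference in origin or handling between the breeds cannot be told apart from breed. The p-values set a difference between groups against the spread between these pigs.

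The sarcomere is the contractile unit of striated muscle. At its ends, the Z-disc anchors the thin actin filaments, and telethonin (TCAP) caps the end of titin there, while myozenin 1 (MYOZ1) binds alpha-actinin, filamin C and calcineurin. In its middle, the M-band links neighbouring thick filaments through myomesin 1 (MYOM1) and M-protein (MYOM2), the latter known mostly from fast fibres. The myosin-binding proteins C (MYBPC1, the slow type, and MYBPC2, the fast type) sit on the thick filament in the A-band, between these structures, and titin runs from the Z-disc to the M-band.

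Total counts per pig ran from 11312755 to 20134612, with a median of 14055410, and 14855 to 16253 genes had at least 1 count. The 6 genes together took 1.29% to 1.95% of a pig's counts, and the lowest count of any of them in any pig was 5559, so their counting error was small beside the spread between pigs. ACTA1, CKM, DES and TNNC2, which mark skeletal muscle fibres, were abundant in every pig. Their summed level was 54072 to 232499 CPM (counts scaled to the library size of each pig). In Hampshire it was 136760 to 232499 CPM in high and 85448 to 123962 CPM in low loin weight pigs. In Pietrain it was 54072 to 116702 CPM in high and 68433 to 76118 CPM in low loin weight pigs. Of the 2 heart genes matched, NPPB was near 0, at 0 to 0.182 CPM. The other, TNNT2, was not, and ran from 0.4894 CPM in Pietrain high to 63.63 CPM in Hampshire low pigs. At low loin weight TNNT2 was higher in Hampshire than in Pietrain (log2 fold change 3.41, edgeR adjusted p = 0.0394). That call was kept in 7 of 13 fits that left out 1 pig. For the breed comparisons these fits left out each of the 13 pigs in turn, also pigs outside the 2 groups compared. Leaving out such a pig changes the scaling, the filter and the shared spread, but not which pigs are compared. Levels below are CPM scaled by the trimmed mean of M-values (TMM). CPM is not corrected for gene length, so levels are compared between pigs and never between genes. In bulk muscle, fewer fibres of a type and less RNA per fibre cannot be told apart.

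A gene was called when its Benjamini-Hochberg adjusted p-value, over all genes tested, was under 0.05 in the quasi-likelihood test of edgeR and its fold change was at least 1.2. In Hampshire pigs of high against low loin weight, 3 of the 6 genes were called, MYOM1 and MYOM2 lower and TCAP higher. Of all 12228 genes tested, 26.6% were called in this comparison, and 45.9% had groups that did not overlap. In Pietrain pigs, none of the 6 was called, where 0% of the 12065 genes tested were called, 398 genes had an unadjusted p-value under 0.05 and DESeq2 called 1 gene. The study itself reported differentially expressed genes between the Pietrain loin weight groups, with DESeq2 at these thresholds, and its list was not compared here. Between the breeds, MYOZ1 was called lower in Hampshire at low loin weight, where 17.9% of 12831 genes were called, and MYOM1, MYOM2 and TCAP were called at high loin weight, where 46.8% were. At low loin weight the breeds were fully separated for 4 of the 6 genes, against 42.8% of all genes, and at high loin weight for 2 of the 6, against 48.7%. In Pietrain the loin weight groups were separated for 0 of the 6, against 4.59%. The breed comparisons use the same pigs as the comparisons within breeds.

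**Figure D1:**
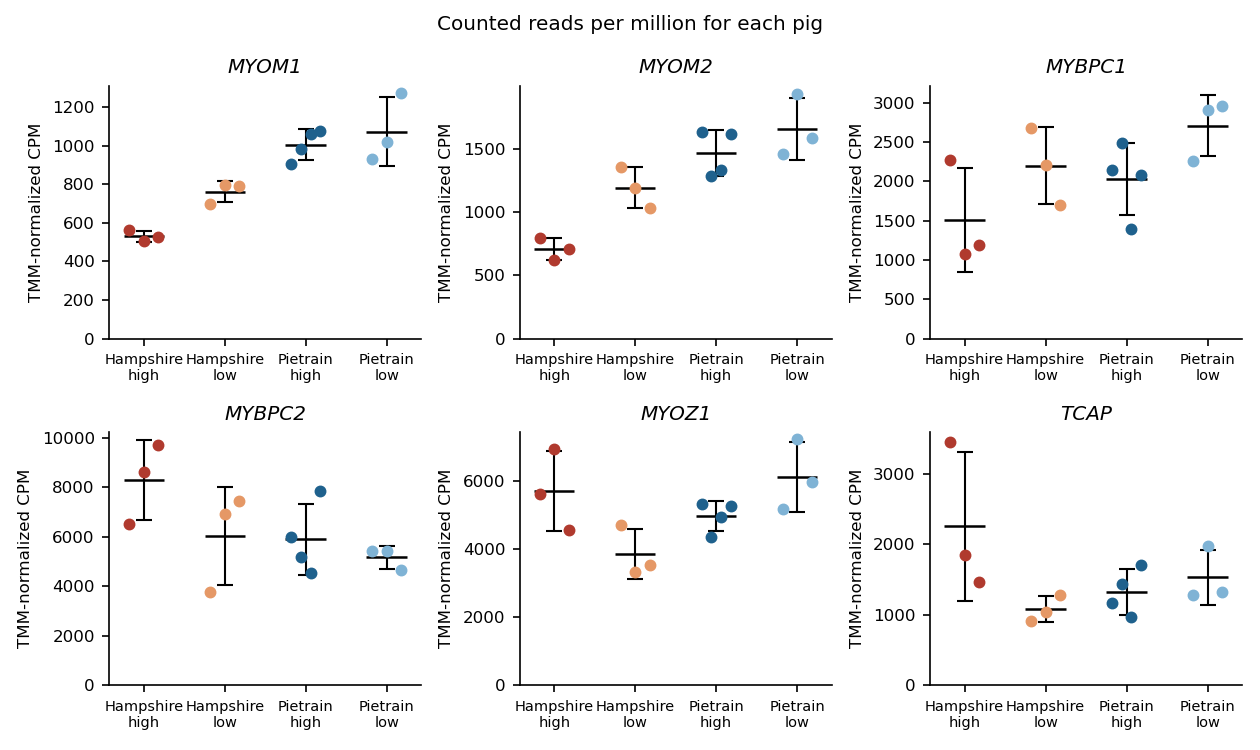
Points give the TMM-normalized CPM of each pig (vertical axis, from 0) in the 4 groups (horizontal axis), and bars give the mean ± SD. For MYOM1 and MYOM2 the 3 Hampshire high loin weight pigs lie below all other pigs, and for TCAP Hampshire high pig 8 lies apart at 3457 CPM.

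MYOM1 (ENSSSCG00000003693, chromosome 6 from 96482621 to 96620109 on Sscrofa10.2) encodes myomesin 1, the main cross-linker of thick filaments in the M-band. Its level was 562, 505 and 528 CPM in Hampshire high pigs 8, 9 and 10. It was 699, 796 and 793 CPM in Hampshire low pigs 1, 2 and 3. Among Pietrain pigs it was 903, 981, 1060.4 and 1077 CPM in high pigs 1, 2, 6 and 7, and 930, 1017 and 1272 CPM in low pigs 3, 5 and 8. All Hampshire pigs lay below all Pietrain pigs, and within Hampshire every high pig lay below every low pig. Group means rose in the order Hampshire high (532 ± 28.6 CPM, SD, n = 3), Hampshire low (763 ± 55.3, n = 3), Pietrain high (1005 ± 80.1, n = 4) and Pietrain low (1073 ± 178, n = 3), and only the last 2 neighbours overlapped.

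The log2 fold change of MYOM1 in Hampshire, high against low, was -0.52 (SE 0.158, edgeR adjusted p = 0.0399), a 1.44-fold lower level. It was close to the threshold. Of the 6 fits that left out 1 pig, only that without Hampshire low pig 1 kept the call, and the highest adjusted p was 0.126, without Hampshire low pig 3. In Pietrain the log2 fold change was -0.06 (SE 0.183, edgeR adjusted p = 0.969). At high loin weight Hampshire was 1.89-fold lower than Pietrain (log2 fold change -0.92, SE 0.158, edgeR adjusted p = 0.00046), and the call was kept in 13 of 13 fits that left out 1 pig. The breed difference at low loin weight was -0.49 (SE 0.166, edgeR adjusted p = 0.0526), just outside the threshold.

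MYOM2 (ENSSSCG00000015747, chromosome 15 from 38071422 to 38120615) encodes M-protein, the paralog of myomesin 1. Its level was 793.2, 618.4 and 706.6 CPM in Hampshire high pigs 8, 9 and 10. It was 1361, 1191 and 1033 CPM in Hampshire low pigs 1, 2 and 3. In Pietrain it was 1633, 1285, 1333 and 1623 CPM in high pigs 1, 2, 6 and 7, and 1463, 1934 and 1584 CPM in low pigs 3, 5 and 8. The 3 Hampshire high pigs again lay below all others. Hampshire low pig 1, at 1361 CPM, lay within the range of the Pietrain high pigs, and all 3 Hampshire low pigs lay below the Pietrain low pigs. Group means were 706 ± 87.4, 1195 ± 164, 1469 ± 185 and 1660.1 ± 245 CPM in the same order as for MYOM1, and Pietrain high overlapped both Hampshire low and Pietrain low.

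In Hampshire, high against low, MYOM2 was 1.7-fold lower (log2 fold change -0.76, SE 0.19, edgeR adjusted p = 0.0205). The call was kept in 4 of 6 fits that left out 1 pig, and was lost without Hampshire low pig 2 (edgeR adjusted p = 0.0539) or Hampshire high pig 10 (edgeR adjusted p = 0.0633). In Pietrain the log2 fold change was -0.14 (SE 0.182, edgeR adjusted p = 0.939). At high loin weight Hampshire was 2.08-fold lower than Pietrain (log2 fold change -1.06, SE 0.178, edgeR adjusted p = 0.000394), called in 13 of 13 fits that left out 1 pig. At low loin weight it was -0.47 (SE 0.185, edgeR adjusted p = 0.0853). For both M-band genes the exact two-sided permutation p was 0.1 within Hampshire and at low loin weight and 0.057 at high loin weight, each the smallest that the numbers of pigs allow.

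The balance of the M-band paralogs was examined as the log2 ratio of MYOM1 to MYOM2 counts, which does not depend on library scaling. It was -0.50, -0.29 and -0.42 in Hampshire high pigs 8, 9 and 10, and -0.96, -0.58 and -0.38 in Hampshire low pigs 1, 2 and 3. In Pietrain it ranged from -0.86 to -0.33 in the high and from -0.93 to -0.32 in the low pigs. The groups overlapped throughout. The difference was 0.24 in Hampshire, high minus low (exact two-sided permutation p = 0.3), and from -0.01 to 0.14 in the other 3 comparisons.

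**Figure D2:**
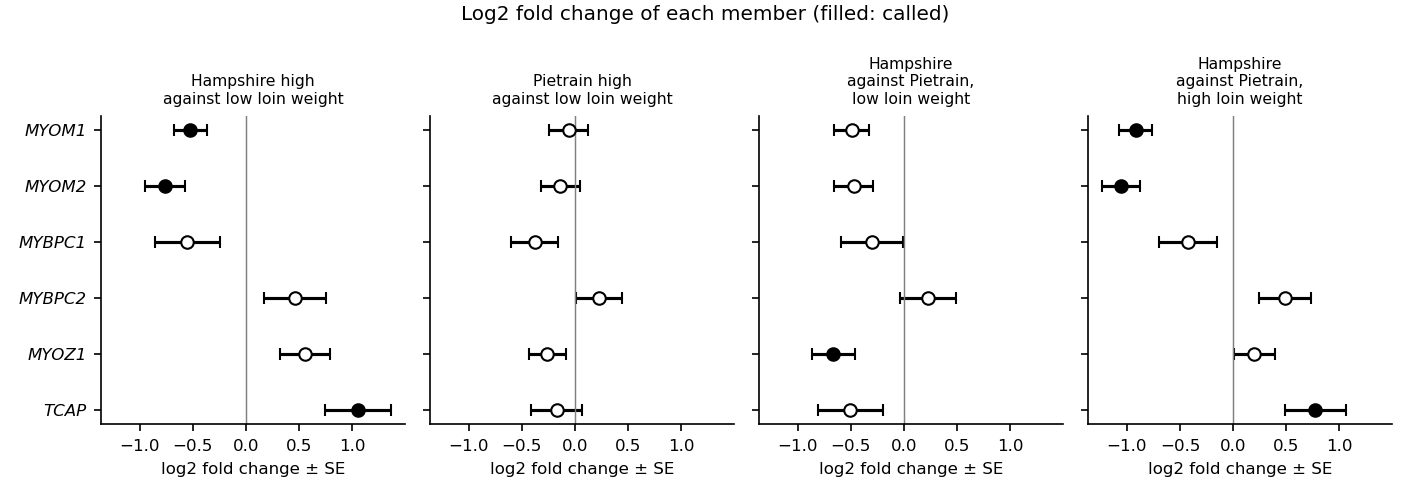
Points give the log2 fold change of each gene (horizontal axis) with its SE as bars, in 4 comparisons, first group minus second. Filled points were called, and MYOM1 and MYOM2 lie at -0.92 and -1.06 in Hampshire against Pietrain at high loin weight.

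MYBPC1 (ENSSSCG00000000866) encodes the slow type of myosin-binding protein C, which both slow and fast fibres can carry. Its level was 2276, 1077 and 1187 CPM in Hampshire high pigs 8, 9 and 10, and 2681, 2216 and 1706 CPM in Hampshire low pigs 1, 2 and 3. Its Pietrain levels were 2146, 2495, 1399 and 2089 CPM in high pigs 1, 2, 6 and 7, and 2259, 2915 and 2960 CPM in low pigs 3, 5 and 8. Hampshire high pigs 9 and 10 were the lowest of all 13, while pig 8 of the same group lay inside the range of every other group. The log2 fold change, high against low, was -0.55 in Hampshire (SE 0.309, edgeR adjusted p = 0.21) and -0.38 in Pietrain (SE 0.219, edgeR adjusted p = 0.939). Without Hampshire high pig 8 it was -0.99 in Hampshire and called (edgeR adjusted p = 0.029). Between the breeds it was -0.30 at low and -0.43 at high loin weight, not called in either. At high loin weight it was -0.88 and called without Hampshire high pig 8 (edgeR adjusted p = 0.0147) and -0.28 without pig 9, and at low loin weight it was -0.11 without Hampshire low pig 3 and -0.45 without pig 1.

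MYBPC2 (ENSSSCG00000003218, chromosome 6 from 51131458 to 51159087) encodes the fast type. Its level was 6532, 8639 and 9711 CPM in Hampshire high pigs 8, 9 and 10, and 3774, 6905 and 7459 CPM in Hampshire low pigs 1, 2 and 3. In Pietrain it was 6004, 5186, 4550.1 and 7855 CPM in high pigs 1, 2, 6 and 7, and 5429, 5434 and 4636 CPM in low pigs 3, 5 and 8. Groups overlapped in all comparisons. The log2 fold change, high against low, was 0.46 in Hampshire (SE 0.29, edgeR adjusted p = 0.263) and 0.23 in Pietrain (SE 0.215, edgeR adjusted p = 0.939). Hampshire against Pietrain, it was 0.23 at low loin weight and 0.49 at high loin weight (SE 0.245, edgeR adjusted p = 0.114). Single pigs moved these values. The Hampshire value was 0.17 without low pig 1, and the Pietrain value 0.046 without high pig 7 and 0.35 without high pig 6. At low loin weight the breed difference was 0.090 without Hampshire low pig 3 and 0.49 without Hampshire low pig 1. At high loin weight it was 0.66 and called without Pietrain high pig 7 (edgeR adjusted p = 0.0423), and 0.32 without Hampshire high pig 10.

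The log2 ratio of MYBPC1 to MYBPC2 counts was -1.52, -3.00 and -3.03 in Hampshire high pigs 8, 9 and 10, and -0.49, -1.64 and -2.13 in Hampshire low pigs 1, 2 and 3. It was -1.48, -1.06, -1.70 and -1.91 in Pietrain high pigs 1, 2, 6 and 7, and -1.27, -0.90 and -0.65 in Pietrain low pigs 3, 5 and 8. The mean was lower in the high than in the low group of both breeds, and the groups overlapped in each. The difference was -1.10 in Hampshire (exact two-sided permutation p = 0.3) and -0.60 in Pietrain (exact two-sided permutation p = 0.114), against smallest possible values of 0.1 and 0.057. Over the 8 tests of the 2 ratios in 4 comparisons, adjusted p-values ran from 0.6 to 1.

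**Figure D3:**
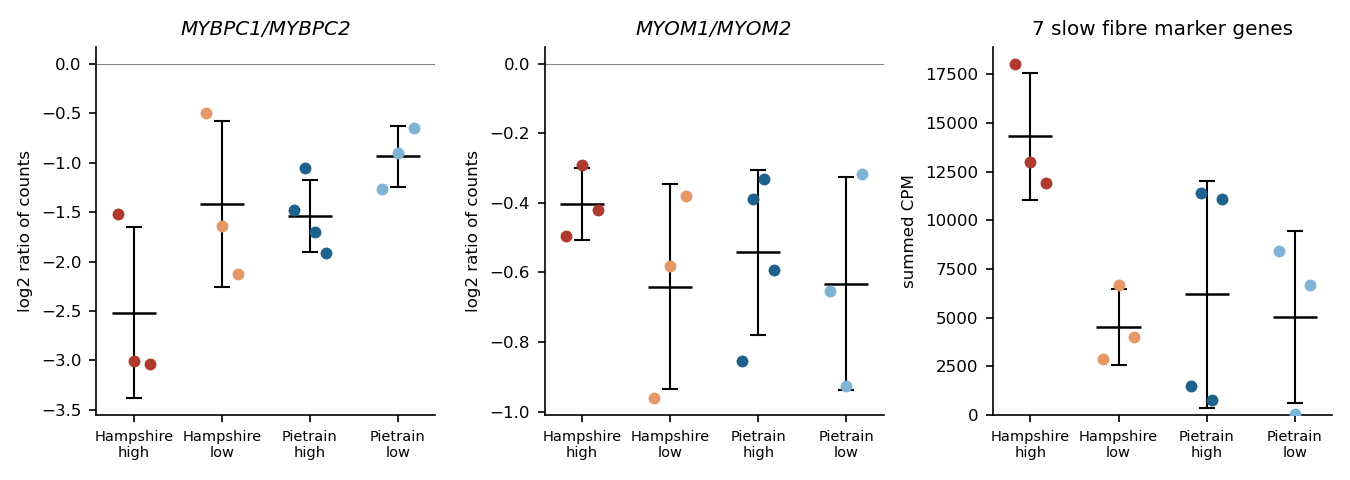
The first panels give the log2 ratio of counts of each paralog pair for each pig, with mean ± SD, and the last gives the summed CPM of 7 slow fibre marker genes. The lowest MYBPC1 to MYBPC2 ratios are those of Hampshire high pigs 9 and 10 (-3.00 and -3.03), and Pietrain low pig 5 is near 0 in the slow fibre sum (46.6 CPM).

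MYOZ1 (ENSSSCG00000010304, chromosome 14 from 82571969 to 82579806) encodes myozenin 1, a Z-disc protein known mainly from fast fibres. Its level was 5641, 6950.1 and 4581 CPM in Hampshire high pigs 8, 9 and 10, and 4720.2, 3342 and 3539 CPM in Hampshire low pigs 1, 2 and 3. Pietrain levels were 5339, 4366, 4954 and 5278 CPM in high pigs 1, 2, 6 and 7, and 5186, 7236 and 5978 CPM in low pigs 3, 5 and 8. Hampshire low pigs 2 and 3 were the lowest of all 13, and every Hampshire low pig lay below every Pietrain low pig. At low loin weight Hampshire was 1.59-fold lower than Pietrain (log2 fold change -0.67, SE 0.205, edgeR adjusted p = 0.0395, exact two-sided permutation p = 0.1, the smallest possible). That call was kept in 6 of 13 fits that left out 1 pig.

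The calls lost were those without Hampshire low pig 2 or 3, Pietrain low pig 5 or 8, Pietrain high pig 1 or 2, or Hampshire high pig 8. The log2 fold change then ran from -0.64 to -0.53 and the edgeR adjusted p from 0.056 to 0.175. High against low, the log2 fold change of MYOZ1 was 0.56 in Hampshire (SE 0.235, edgeR adjusted p = 0.107) and -0.26 in Pietrain (SE 0.174, edgeR adjusted p = 0.939). The difference between these effects was 0.87 (SE 0.28, edgeR adjusted p = 0.0848), not called. Hampshire against Pietrain at high loin weight, the log2 fold change of MYOZ1 was 0.20 (SE 0.191, edgeR adjusted p = 0.406), not called.

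TCAP (ENSSSCG00000017500, chromosome 12 from 23107252 to 23108618) encodes telethonin. Its level was 3457, 1843 and 1467 CPM in Hampshire high pigs 8, 9 and 10, and 909, 1041 and 1281 CPM in Hampshire low pigs 1, 2 and 3. In Pietrain it was 1162, 1437, 966 and 1709 CPM in high pigs 1, 2, 6 and 7, and 1285, 1981 and 1325 CPM in low pigs 3, 5 and 8. Every Hampshire high pig lay above every Hampshire low pig. The Hampshire low pigs lay only just below the Pietrain low pigs, the highest at 1281 CPM against the lowest at 1285 CPM. That breed difference at low loin weight was not called (log2 fold change -0.51, SE 0.308, edgeR adjusted p = 0.25). The ratio of the highest to the lowest pig, 3.81, was larger than for the other 5 genes, where it was 2.17 to 3.13.

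In Hampshire, high against low, TCAP was 2.08-fold higher (log2 fold change 1.06, SE 0.309, edgeR adjusted p = 0.0355, exact two-sided permutation p = 0.1, the smallest possible). The call was kept only without Hampshire high pig 10. Without Hampshire high pig 8 the log2 fold change was 0.58 (edgeR adjusted p = 0.0917), and without any of the other 4 pigs it was 0.91 to 1.19 with adjusted p-values of up to 0.11. In Pietrain it was -0.17 (SE 0.242, edgeR adjusted p = 0.942). At high loin weight Hampshire was 1.71-fold higher than Pietrain (log2 fold change 0.77, SE 0.285, edgeR adjusted p = 0.0378), with overlapping groups (exact two-sided permutation p = 0.114). That call was kept in 3 of 13 fits, and without Hampshire high pig 8 the log2 fold change was 0.29 (edgeR adjusted p = 0.388). In the other 9 fits without the call, the edgeR adjusted p was at most 0.106.

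The effect of loin weight did not differ between the breeds past the threshold for any of the 6 genes, where 5.9% of 12831 genes did by edgeR, with an adjusted p-value under 0.05 and no minimum fold. The Hampshire effect minus the Pietrain effect was -0.43 for MYOM1 (edgeR adjusted p = 0.291), -0.58 for MYOM2 (edgeR adjusted p = 0.193), -0.12 for MYBPC1, 0.26 for MYBPC2, 0.87 for MYOZ1 and 1.28 for TCAP (SE 0.421, edgeR adjusted p = 0.0893). At an unadjusted p under 0.05, 3 of the 6 passed, MYOM2, MYOZ1 and TCAP, as did 2835 of all 12831 genes. With DESeq2, MYOZ1 (adjusted p = 0.028) and TCAP (adjusted p = 0.0277) passed. The M-band and Z-disc genes called in Hampshire are thus not shown to respond differently in Pietrain by edgeR.

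Fold changes in Hampshire moved with the span of the gene on the chromosome. Over the genes with a position in the deposited tables, Spearman's rho between the log2 fold change and the span was -0.386 in Hampshire (9945 genes), -0.0893 in Pietrain (9964 genes) and -0.391 for Hampshire against Pietrain at high loin weight (9975 genes). For Hampshire against Pietrain at low loin weight rho was -0.215, and for the difference between breeds in the loin weight effect -0.337 (9975 genes each). These are correlations across genes, which are not independent replicates. MYOM1 spans 137489 bp, longer than 94.7% of the 9945 genes, and MYOM2 49194 bp, longer than 77% of them. MYOZ1 spans 7838 bp and TCAP 1367 bp, longer than 25% and 3.13%. MYBPC1 has no position in those tables.

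Genes of like span (within 1.2-fold) had a median log2 fold change in Hampshire of -0.36 for MYOM1 and -0.29 for MYOM2, and of 0.285 for MYOZ1 and 0.36 for TCAP. With the trend on span removed, the log2 fold change in Hampshire was -0.14 for MYOM1 (edgeR adjusted p = 0.511), -0.50 for MYOM2 (edgeR adjusted p = 0.0581) and 0.64 for TCAP (edgeR adjusted p = 0.157), so all 3 calls ended. Hampshire against Pietrain at high loin weight, MYOM1 (-0.41, edgeR adjusted p = 0.0412) and MYOM2 (-0.67, edgeR adjusted p = 0.00594) stayed called, TCAP did not (0.16, edgeR adjusted p = 0.648), and MYBPC2 became called (0.68, edgeR adjusted p = 0.0388). MYOZ1 at low loin weight was -0.80 (edgeR adjusted p = 0.016). In the difference between breeds, MYOZ1 was then 0.63 (edgeR adjusted p = 0.195) and TCAP 0.88 (edgeR adjusted p = 0.209), neither called. The cause of the trend was not tested.

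**Figure D4:**
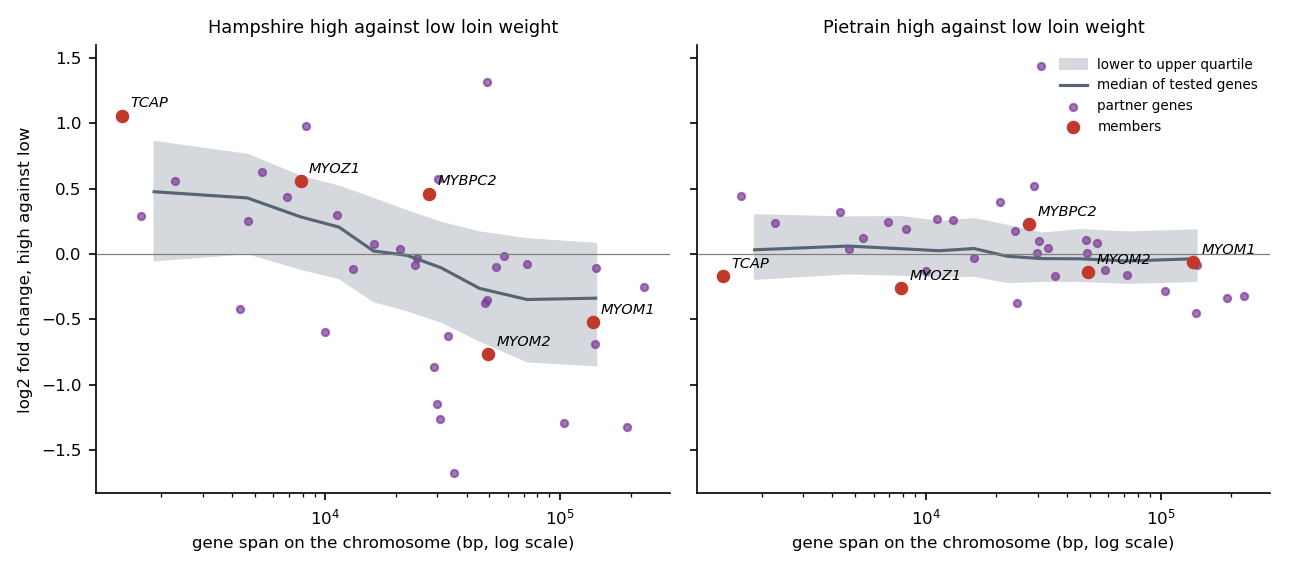
The log2 fold change, high against low loin weight (vertical axis), is set against gene span (horizontal axis, log scale) in each breed. The grey line gives the median and the band the range from the lower to the upper quartile of the genes tested, in 10 equal bins by span. In Hampshire the median falls from 0.48 in the bin of the shortest genes to -0.34 in that of the longest, and MYOM2 (-0.76) lies below the line and TCAP (1.06) above it.

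Fibre type and other cell markers moved with loin weight in Hampshire as well. Of the 4 muscle fibre genes, 1 (CKM, log2 fold change 0.98) was called higher in Hampshire high pigs, in 1 of 6 fits that left out 1 pig. At high loin weight ACTA1 (1.23), CKM (1.36) and TNNC2 (0.86) were called higher in Hampshire than in Pietrain, and DES (0.59) was not. Of 7 slow fibre genes matched, 5 were called higher in Hampshire high pigs. Their summed level was 11924 to 18006 CPM in the Hampshire high and 2887 to 6683 CPM in the Hampshire low pigs. It was 785 to 11397 CPM in the Pietrain high pigs and 46.6, 6686 and 8405.0 CPM in the Pietrain low pigs, where pig 5 stood apart. CSRP3, a LIM protein, is in both the slow fibre and the Z-disc list. The 5 fast fibre genes summed to 76401 to 78149 CPM in Hampshire high and 81979 to 130384 CPM in Hampshire low pigs. The 1 called lower was MYH1 (23464 against 55444 CPM on average, log2 fold change -1.25), whose call was kept in 0 of 6 fits that left out 1 pig, while MYL1 (0.24) and MYLPF (0.66) were above 0 and not called. Of 5 connective tissue matrix genes, 3 were called higher in Hampshire high pigs, and the sums were 1877 to 4870 CPM (the highest 4869.5) against 738 to 1585 CPM. Of these calls, TNNT1, TNNI1, TNNC1, MYL3 and DCN were kept in 6 of 6 fits that left out 1 pig, and MYH7, COL1A2 and COL3A1 in 1 of 6. Their part in the M-band and Z-disc results was not tested.

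Among the remaining marker lists, the 3 macrophage genes summed to 20.6 to 43.9 CPM in Hampshire high, 13.2 to 20.9 CPM in Hampshire low and 4.92 to 10.7 CPM in all Pietrain pigs, with none called within Hampshire. Between the breeds, 2 of these 3 were called higher in Hampshire at low and 3 of 3 at high loin weight. Of the 2 adipocyte genes matched, 1 (CIDEC) was called higher in Hampshire high pigs, in 2 of 6 fits that left out 1 pig, at sums of 6.74 to 29.0 against 1.61 to 5.20 CPM. The 2 blood and the 2 endothelial genes had none called, and their sums overlapped between all groups. None of the defining markers PLIN1, HBB, PECAM1 or CSF1R was at 0 in any pig.

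MYOM2 was lower in pigs with higher matrix sums (Pearson r = -0.783 over 13 pigs of log2 levels, and -0.73 within groups), and MYBPC1 likewise (-0.814 and -0.715). With the macrophage sum r was -0.923 for MYOM2 (-0.68 within groups), -0.856 for MYOM1 (0.276 within groups) and -0.71 for MYBPC1 (-0.738 within groups). MYBPC1 had r = -0.274 with the slow fibre sum and 0.117 within groups. With the same sum r was -0.58 for MYOM2 (-0.421 within groups) and -0.314 for MYOZ1 (-0.495 within groups). It was -0.398 for MYOM1 (0.223 within groups), 0.395 for MYBPC2 (0.124 within groups) and 0.16 for TCAP (-0.0498 within groups). With the fast fibre sum r was 0.534 for MYOM2 and 0.236 for MYOZ1, and 0.771 and 0.769 within groups. For MYBPC2, the fast type, it was -0.473, and -0.326 within groups. It was 0.195 for MYOM1 (-0.278 within groups), 0.402 for MYBPC1 (0.193 within groups) and -0.284 for TCAP (-0.00539 within groups). MYOM1 and MYOM2 had r = 0.887 with each other over the 13 pigs and -0.0735 within groups. All are descriptions over pigs that share a group, a scaling and the same libraries.

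Without Pietrain low pig 5, which stood apart in the slow fibre genes, none of the 6 genes was called in Pietrain, and TCAP changed sign there (0.03). At low loin weight the MYOZ1 call was lost without it (-0.53, edgeR adjusted p = 0.159), and at high loin weight the same number of genes, 3, was called. Pig 5 had the highest MYOM2, MYOZ1 and TCAP levels of the Pietrain low group.

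Over the 13 pigs, the genes whose level was most like each of the 6, by Pearson's r of log2(CPM + 0.5), were ranked among all genes with a symbol. They were RAB5A (0.97) and ERBB2IP (0.969) for MYOM1, and NEK9 (0.979) and TRIP12 (0.974) for MYOM2. For MYBPC1 they were DLAT (0.902), which encodes a subunit of pyruvate dehydrogenase, and SPTSSA (0.902). They were CLK2 (0.894) and SLC7A10 (0.88) for MYBPC2, SNU13 (0.958) and SS18L2 (0.941) for MYOZ1, and PMF1 (0.806) and PMVK (0.806) for TCAP. Within groups these values were 0.59 to 0.907. TCAP had the weakest match of the 6. These pairs are the highest of many, so their r is a ranking.

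Known partners of these genes were read from 4 lists of Z-disc, M-band, titin spring and signalling, and chaperone and turnover genes, with 66 symbols, of which 48 genes were matched and tested. In Hampshire, high against low, 4 of 48 were called higher and 14 lower, and their median log2 fold change was -0.10, against 0.03 over all genes. Of all genes tested, 12% were called higher and 14.6% lower. By list, the calls higher and lower were 1 and 8 of 21 for the Z-disc, 1 and 1 of 7 for the M-band, 1 and 3 of 11 for titin spring and signalling, and 1 and 2 of 9 for chaperone and turnover. In Pietrain none of the 48 was called, and 3 had an unadjusted p under 0.05. The 2 with the smallest p were KLHL40 (log2 fold change 0.87, edgeR adjusted p = 0.939) and SYNPO2 (-0.45, edgeR adjusted p = 0.939).

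SMYD1, a muscle methyltransferase needed for thick filament assembly, was at 13.7 ± 1.86 CPM (SD, n = 3) in Hampshire high and 60.0 ± 4.56 CPM (n = 3) in Hampshire low pigs, a log2 fold change of -2.13 (edgeR adjusted p = 0.001). It was at 74.5 ± 13.6 CPM in Pietrain high (n = 4) and 63.3 ± 18.5 CPM in Pietrain low (n = 3) pigs. CMYA5 (myospryn, -1.67), NEB (nebulin, the ruler of the thin filament, -1.29), PALLD (palladin, -1.14), MYPN (myopalladin, -1.08) and SYNPO2L (-0.81) were lower too. NEB had 2519.9 ± 217 CPM in Hampshire high and 6165 ± 422 CPM in Hampshire low pigs, and 8255 ± 855 and 10284 ± 1792 CPM in Pietrain high and low pigs. Called higher were PDLIM1 (a PDZ and LIM domain protein, 1.32), ANKRD2 (a stretch-responsive ankyrin repeat protein, 1.23), CKM (muscle creatine kinase, bound at the M-band, 0.98) and STUB1 (the ubiquitin ligase CHIP, 0.56).

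PDLIM1, ANKRD2, SMYD1, CMYA5, NEB, MYPN, PALLD and SYNPO2L stayed called in 6 of 6 fits that left out 1 pig, CKM in 1 and STUB1 in 0. With the span trend removed, CMYA5 (-1.49), NEB (-0.93), PALLD (-1.01) and PDLIM1 (1.58) stayed called, and CKM (0.75, edgeR adjusted p = 0.0674) and STUB1 (0.17, edgeR adjusted p = 0.409) did not. SMYD1, ANKRD2, MYPN and SYNPO2L have no position for this check.

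**Figure D5:**
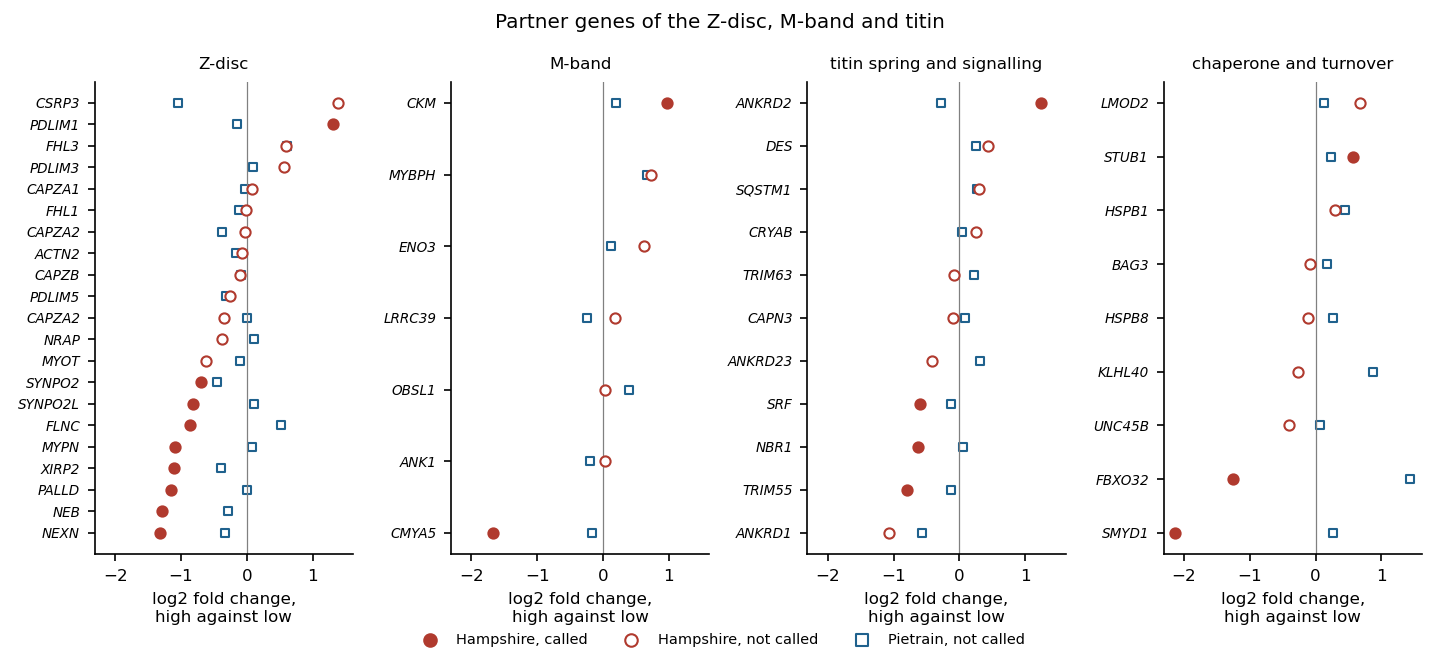
Each row is a partner gene, grouped by list, with its log2 fold change, high against low loin weight (horizontal axis), in Hampshire (circles, filled when called) and Pietrain (squares, none called). The Z-disc list holds 8 genes called lower in Hampshire, and SMYD1 has the lowest value of all, -2.13.

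Between the breeds at low loin weight, 2 of the 48 partners were called higher in Hampshire and 8 lower, against 7.84% and 10.1% of all genes. UNC45B, a myosin chaperone, was higher (1.41, 13 of 13 fits), as was SQSTM1 (p62, 0.69). CMYA5 (-1.07), XIRP2 (-1.08), NEB (-0.74), SYNPO2 (-0.71) and both genes named CAPZA2, a subunit of the actin capping protein (-1.23 and -1.04), were lower. These 2 identifiers share that symbol, so reads may be split between them. Apart from UNC45B, these calls were kept in 8 to 10 of 13 fits that left out 1 pig. Some of those 13 fits left out a pig of neither group compared. SYNPO2 was not called with the span trend removed (-0.52, edgeR adjusted p = 0.0647). At high loin weight, 8 were called higher and 18 lower, against 22.6% and 24.2% of all genes. The higher ones included PDLIM1 (1.83), CKM (1.36), UNC45B (0.99), STUB1 (0.91), SQSTM1 (0.76) and ENO3 (beta-enolase, 0.76), and the lower ones CMYA5 (-2.53), SMYD1 (-2.44), NEXN (nexilin, -2.01), XIRP2 (-1.74), NEB (-1.71) and MYPN (-1.31). With the span trend removed, STUB1 (0.34, edgeR adjusted p = 0.0808) and ENO3 (0.29, edgeR adjusted p = 0.292) were not called, and PDLIM1 (2.21), CKM (1.02), SQSTM1 (0.55), CMYA5 (-2.25), NEXN (-1.48) and NEB (-1.21) were.

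The loin weight effect differed by breed for 5 of the 48 partners, all lower in Hampshire relative to Pietrain, against 1.68% of all genes called higher and 4.22% lower. They were SMYD1 (Hampshire effect minus Pietrain effect -2.36, SE 0.309, edgeR adjusted p = 0.00251), CMYA5 (-1.47, edgeR adjusted p = 0.0132), MYPN (-1.13, edgeR adjusted p = 0.0222), NEB (-0.97, edgeR adjusted p = 0.0311) and FBXO32 (atrogin-1, -2.65, edgeR adjusted p = 0.0421). FBXO32 was kept in 4 of 13 fits that left out 1 pig, against 12 or 13 for the others. With the span trend removed NEB was no longer called (-0.67, edgeR adjusted p = 0.123), whereas CMYA5 was (-1.34, edgeR adjusted p = 0.0132).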

How the data were processed

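Total RNA of 13 longissimus lumborum samples (RIN above 7.5) was made into TruSeq v2 libraries, which do not mark strand, and sequenced by the authors in 101 single-end cycles with 4 technical repeats, which form 1 column per pig. The authors deposited raw counts per Ensembl gene on Sscrofa10.2. FastQC, STAR, RSEM and DESeq2 are named in the submitters' processing notes without a role, and whether the counts are direct or rounded RSEM estimates, and how reads shared by paralogs were assigned, is not given in the sources used here. The authors' DESeq2 tables (fold changes and p-values per breed) were used only for gene symbols and positions.

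Counts were analysed in R 4.3.3 with edgeR 4.0.16 (filterByExpr by group, TMM, glmQLFit, glmQLFTest), within each breed for loin weight and over all 13 pigs for breed and the difference between breeds. P-values were adjusted over all genes tested. Exact two-sided permutation tests used log2(CPM + 0.5) for single genes. For the paralog pairs they used the log2 ratio of counts, with 0.5 added to each count. DESeq2 1.42.0 was an alternative, and the fits were tested on simulated data. Figures used matplotlib 3.10.9 in Python 3.11.15. The genes, lists and tests were chosen with earlier results of these data known. All 6 matched genes are named in every comparison, with the 2 most similar genes each. Of the partners, up to 6 called in each direction with the smallest p are named per comparison, or, where none was called, the 2 with the smallest p. Symbols matched 13168 of 25322 genes, and 82 of 123 list symbols. Ratios with TTN or MYOZ3 were planned and could not be computed, so 2 ratios were tested. All 15 pairs of pigs within groups differed by more than sampling noise, at a chi-square of 23.7 to 140.5 per gene.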

Additional observations from a re-analysis of the deposited data

Results flagged for a closer look

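For 5 partner genes the effect of loin weight differed between the breeds by the test of the difference itself in edgeR, on the log2 scale as Hampshire minus Pietrain. The values were -2.36 for SMYD1, -1.47 for CMYA5, -0.97 for NEB, -1.13 for MYPN and -2.65 for FBXO32. For FBXO32, mean levels were 18.8 and 44.9 CPM in Hampshire high and low pigs and 50.8 and 19.3 CPM in Pietrain high and low pigs, with an SD of 42.8 CPM in Pietrain high.

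CKM in Pietrain high had 1 pig, at 25248 CPM, far above the other 3 of its group, whose median with it was 16787 CPM. This was 1 of 28 sets of values of 4 pigs looked at in this way, and chance flags about 1 in 20. Only the Pietrain high group has 4 pigs, so the sets share the same pigs and are not independent.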

How the results depend on the processing

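The number of the 6 genes called was 3 in Hampshire, and 0 to 2 when 1 pig was left out (0 without Hampshire low pig 2, and 1 without Hampshire low pig 3 or Hampshire high pig 9 or 10). At low loin weight between breeds it was 1, against 3 with DESeq2, 2 with DESeq2 size factors, 0 without a filter, 0 with only the 2 groups compared, and 0 to 2 leaving out 1 pig. It was 2 only without Pietrain low pig 3, and 0 without Hampshire low pig 2 or 3, Pietrain low pig 5 or 8, Pietrain high pig 1 or 2, or Hampshire high pig 8. For the difference between breeds it was 0, against 2 with DESeq2 and 1 with total counts without TMM (MYOM2, -0.84, adjusted p = 0.036). In the other 27 alternatives that kept all pigs, the count stayed within 1.5 times.

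Signs turned for MYOM1 in Pietrain with total counts (0.026), for MYOZ1 at high loin weight with total counts (-0.053) and with the span trend removed (-0.16), and for MYBPC2 in the difference between breeds with total counts (-0.020). None of these was called. Leaving out 1 pig gave ranges that crossed 0 for MYOM1 (-0.12 to 0.087) and TCAP (-0.33 to 0.03) in Pietrain, MYOZ1 at high loin weight (-0.0080 to 0.30), and MYBPC1 (-0.61 to 0.0003) and MYBPC2 (-0.042 to 0.43) in the difference between breeds. They did so for the MYOM1 to MYOM2 ratio at low loin weight (-0.16 to 0.15) and in Pietrain (-0.057 to 0.25). The TCAP calls were lost with total counts, in Hampshire (0.91, adjusted p = 0.0798) and at high loin weight (0.55, adjusted p = 0.121), and at high loin weight with only the 2 groups compared (0.75, adjusted p = 0.0721). MYOZ1 was called in Hampshire with DESeq2 (0.56, adjusted p = 0.0444), and MYOM1 and MYOM2 at low loin weight with DESeq2 (adjusted p = 0.00785 and 0.0351).

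Total counts without TMM moved the median of all genes by -0.15 in Hampshire, -0.23 at high loin weight and -0.27 in the difference between breeds, and the share of calls that were higher from 45.1% to 28.8%, from 48.3% to 33.1% and from 28.4% to 10.9%. The cause was not tested. A count with the span trend removed was not made, since MYBPC1 has no position. No paired analysis was made, because pig numbers label different animals and mark no matched pairs between groups. Groups of 3 or 4 pigs, not depth, limit the precision.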
